A study of Mus musculus with 3 samples.

Results

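Pparg, the nuclear receptor at the centre of fat cell differentiation, was described here together with 9 genes of the same programme in mouse embryonic fibroblasts (MEF) treated with n-butylidenephthalide (BP). The members were Pparg, the C/EBP factors Cebpa, Cebpb and Cebpd, and the fat cell genes Fabp4, Lpl, Adipoq, Cd36, Angptl4 and Plin2. Every probe whose gene name, or whose current RefSeq symbol, was one of these names was taken, which gave 10 genes with 11 probes on 20 spots, of 35696 gene names with 55681 probes on 59305 spots. The members were chosen by name with the log2 ratios of these same 3 arrays in view, so the ratios are given as a description and support nothing further. MEF were primary C57BL/6 fibroblasts taken from mid-gestation embryos and grown in serum-containing medium. RNA was measured on 1 array for each of 3 conditions, namely MEF without BP, MEF with BP at 10 µg/ml (BP10) and MEF with BP at 40 µg/ml (BP40). The labels give the control's treatment as none, the account of these arrays in the study names DMSO, the solvent of BP, as the control, and the length of treatment before the arrays is not given in the sources used here. Each condition was thus a single culture with no replicate, and in bulk RNA fewer cells of a type and less RNA per cell cannot be told apart.

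PPARG is a ligand-activated receptor that binds DNA with a retinoid X receptor, usually at a direct repeat of the half-site AGGTCA with 1 base between the repeats, and it drives preadipocytes into fat cells. In the usual order of events Cebpb and Cebpd are switched on first by hormones, they induce Pparg and Cebpa, and those factors keep each other on and activate genes of lipid uptake, storage and secretion. Embryonic fibroblasts hold cells that can enter this programme when given an adipogenic cocktail, which was not part of these cultures as labelled.

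Values are normalised log2 signals, that is, log2 of the scanner's processed intensity minus the 75th percentile of all gene spots on that array. A gene was counted as called where the ratio reached 2-fold (a log2 ratio of 1) and the scanner rated its probe well above background on 1 or both of the arrays in the ratio. Gene spots had a median intensity of 224 in the control, 145 in BP10 and 123 in BP40, and 81.7%, 68.3% and 69.1% of them were well above background. The control array belonged to scan session 1 and both BP arrays to session 2, so an effect of BP cannot be told apart from one of the session in any ratio to the control. The bright E1A spike-in probes, 7 in number, were at a median log2 ratio to the control of 0.01 in BP10 and 0.82 in BP40. All ratios below are relative to the gene spots. Scaling instead on the median level of the spike-in probes on each array changed every log2 ratio by 0.15 in BP10, by -0.77 in BP40 and by -0.92 between the doses. Scaling on the median of their ratios to the control lowered the ratios by the 0.01 and 0.82 given above, so these ways differ mainly in BP10. Values called scaled on the spike-in probes use the median level unless the median ratio is named. All 15 fibroblast markers were well above background on every array. The only spreads available are technical. For probes printed on 10 spots, log2 signals had a median SD over the spots of 0.18 in the control, 0.10 in BP10 and 0.10 in BP40 (n = 399 probes). The median SD of the log2 ratio between the probes of a gene with 2 probes was 0.30 in BP10 and 0.23 in BP40, both relative to the control, and 0.22 between the doses (n = 4767 genes).

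Of the 10 members, 3 were called in BP10, with Pparg up-regulated and Cebpd and Angptl4 down-regulated. This count stands beside 16% of all genes that could be called, or 4924 of 30784. In BP40, Pparg was again up-regulated and Angptl4 down-regulated, 2 of 10 members beside 14.1% of all genes (4349 of 30742). No member was called between BP40 and BP10, where 5.65% of all genes were called. Dim probes make up many of the calls over all genes. Among the 13284 genes well above background on all 3 arrays with a mean normalised log2 signal of -1 or more, as 8 of the 10 members had, the share called was 3.62% in BP10 and 2.98% in BP40. The median log2 ratio of the members was -0.02 in BP10 and -0.01 in BP40, with 5 members higher and 5 lower at each dose. Over all genes that could be called it was -0.26 and -0.15.

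**Figure D1:**
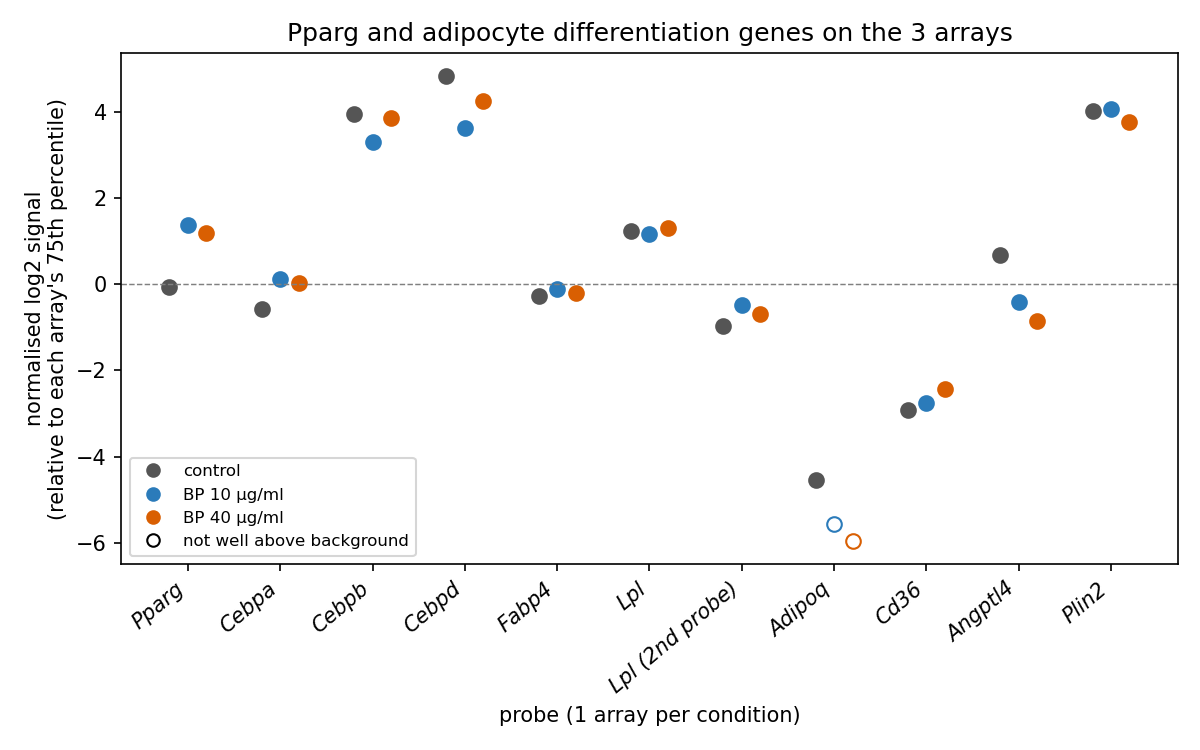
Normalised log2 signal of each of the 11 member probes (vertical axis, relative to the 75th percentile of each array) on the control, BP10 and BP40 arrays; open circles mark signals not well above background. Each point is 1 array, and levels may be compared only within a probe. Pparg lay near 0 in the control and above 1 at both doses, while Angptl4 lay above 0 in the control only.

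Pparg was the one member called higher. Its single probe, printed on 10 spots at chr6:115440213-115440272 of mm9, had a mean normalised log2 signal of -0.06 (SD of spots 0.13) in the control, 1.39 (SD 0.06) in BP10 and 1.18 (SD 0.10) in BP40. The control was low and both BP arrays were high. The processed intensity behind these values was 1704 in the control, 3742 in BP10 and 2815 in BP40. The log2 ratio to the control was 1.44 in BP10, or 2.72-fold, and 1.24 in BP40, or 2.36-fold. The spots of the control, from -0.31 to 0.13, did not overlap those of BP10, from 1.24 to 1.48, or of BP40, from 0.99 to 1.28. The BP10 and BP40 spots overlapped, and the log2 ratio between the doses was -0.20. Spots of one array share 1 RNA sample, so these SDs cover printing and scanning only. How many other probes printed on 10 spots were separated in this way was not counted. The gap between spots is therefore a description of this probe and not a trait particular to Pparg. One BP10 spot carried the scanner's outlier flag, and without it the BP10 mean was 1.40. Scaled on the spike-in probes the log2 ratio was 1.59 in BP10 and 0.47 in BP40, and with the median ratio 1.43 and 0.42, which is below 2-fold at the higher dose. Between the doses it then passed 2-fold, at -1.12 with the median level.

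**Figure D2:**
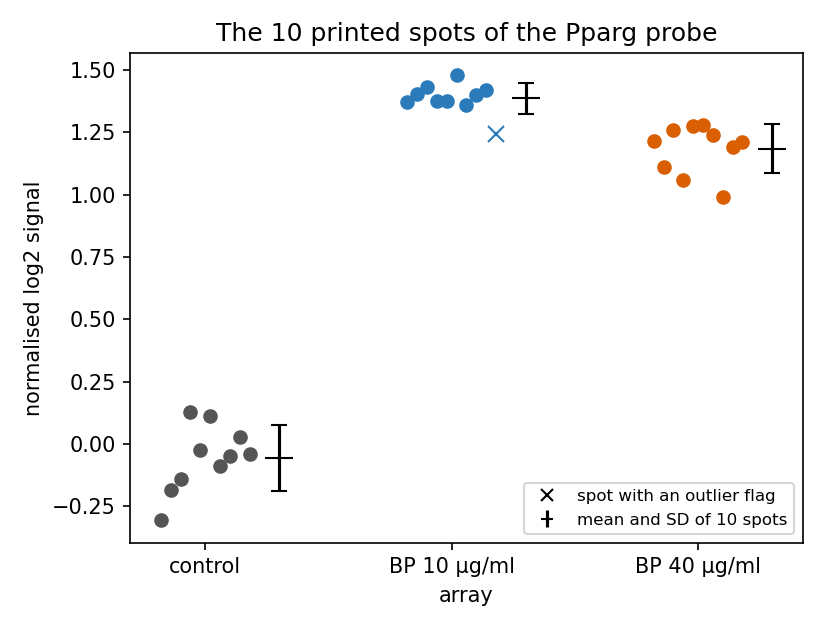
Normalised log2 signal (vertical axis) of each of the 10 spots of the Pparg probe on the control, BP10 and BP40 arrays, with the mean and SD of the spots beside them; the cross marks a spot with an outlier flag. All control spots lie at or below 0.13 and all spots of both BP arrays at or above 0.99.

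Which of the transcripts that begin at different starts of the gene the Pparg probe reads was not analysed here, so its signal was not assigned to a start. The RefSeq promoter table (GRCm38.p6) lists 3 starts, of which the most downstream one is known to give the isoform typical of fat cells, and the 250 bases before each are printed because they show which C/EBP and PPAR letters each start carries. Capitals mark matches on either strand to a C/EBP motif, TTNNGNAA, or to the PPAR half-site, AGGTCA.
Pparg upstream start, chr6:115360894-115361143, plus strand: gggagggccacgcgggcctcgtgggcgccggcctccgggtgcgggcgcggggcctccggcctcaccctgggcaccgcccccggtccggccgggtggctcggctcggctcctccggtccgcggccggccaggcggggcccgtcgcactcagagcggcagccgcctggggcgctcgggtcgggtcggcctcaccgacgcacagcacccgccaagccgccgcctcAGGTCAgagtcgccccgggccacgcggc
Pparg middle start, chr6:115362099-115362348, plus strand: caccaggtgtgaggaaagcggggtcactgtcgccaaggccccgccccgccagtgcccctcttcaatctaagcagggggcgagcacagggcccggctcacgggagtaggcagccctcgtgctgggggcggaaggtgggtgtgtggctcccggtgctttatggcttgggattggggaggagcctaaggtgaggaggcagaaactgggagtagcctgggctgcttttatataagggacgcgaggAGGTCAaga
Pparg downstream start, chr6:115421816-115422065, plus strand: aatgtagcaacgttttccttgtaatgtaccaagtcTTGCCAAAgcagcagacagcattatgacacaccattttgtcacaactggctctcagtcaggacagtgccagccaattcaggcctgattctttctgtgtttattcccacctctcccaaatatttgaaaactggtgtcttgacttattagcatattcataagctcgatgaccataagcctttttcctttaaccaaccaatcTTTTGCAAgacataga

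The upstream and middle stretches held 1 half-site each, from base -28 to -23 and from base -9 to -4 relative to the start, and no C/EBP match. The downstream stretch held 2 C/EBP matches, from -215 to -208 and from -16 to -9, and no half-site. GC content was 82.4% at the upstream start, 63.6% at the middle one and 40.8% at the downstream one. In the same 250 bases of all 32851 promoters of the table, 36.8% held the C/EBP motif and 14.0% the half-site, and the full direct repeat of the half-site (DR1) was in 0.0335%. A match is a description of the letters and says nothing about binding in these cells.

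The early C/EBP factors, which hormones induce ahead of Pparg, were lower or little different in BP-treated MEF cells. Cebpd had a normalised log2 signal of 4.84 in the control, 3.64 in BP10 and 4.26 in BP40. The control was highest and BP10 lowest. The log2 ratio was -1.20 in BP10, 2.30-fold lower, and -0.58 in BP40, which missed 2-fold but passed it at -1.35 when scaled on the spike-in probes. Cebpb had 3.95 in the control, 3.30 in BP10 and 3.87 in BP40. Its BP10 array was the low one, with a log2 ratio of -0.65, and the ratio of -0.08 in BP40 was within the spread between probes. Both factors were higher in BP40 than in BP10, by log2 ratios of 0.57 for Cebpb and 0.62 for Cebpd, which turned to -0.35 and -0.30 under scaling on the spike-in probes. Neither was called between the doses. The Cebpd probe lies at chr16:15888459-15888518 and the Cebpb probe at chr2:167515828-167515887 (mm9).

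Cebpa, the factor that acts with Pparg late in differentiation, had a normalised log2 signal of -0.57 in the control, 0.14 in BP10 and 0.02 in BP40 at its single probe (chr7:35906517-35906576, mm9). The control was the lowest of the 3 arrays, as for Pparg. The log2 ratios of 0.70 in BP10 and 0.59 in BP40 were above the spread between probes and below 2-fold, and the BP40 ratio turned to -0.18 when scaled on the spike-in probes. RefSeq promoters of Cebpa and Cebpb held none of the motifs in their 250 bases. Cebpd, Fabp4, Lpl and Angptl4 had no entry in the promoter table.

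Of the members that bind or take up fatty acids, neither Fabp4 nor Cd36 was called. Fabp4, the fatty acid binding protein of fat cells and macrophages, had a normalised log2 signal of -0.27 in the control, -0.10 in BP10 and -0.21 in BP40 (chr3:10204452-10204511, mm9). These values lay close together. The log2 ratios, 0.16 in BP10 and 0.06 in BP40, were within the spread between probes, and the second was -0.71 under scaling on the spike-in probes. Cd36, a fatty acid receptor, was dim but well above background on all arrays, with -2.91 in the control, -2.76 in BP10 and -2.42 in BP40 (chr5:17288600-17288659, mm9). The control was lowest and BP40 highest. The log2 ratios were 0.14 in BP10, within the spread between probes, and 0.48 in BP40, above it and below 2-fold, and -0.29 for BP40 under scaling on the spike-in probes. After subtracting the median ratio of genes of the same brightness they were 0.54 in BP10 and 0.87 in BP40.

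Lpl, the secreted lipase that frees fatty acids from lipoproteins, was the only member with more than 1 probe. The brighter probe (chr8:71430267-71430326, mm9) had a normalised log2 signal of 1.23 in the control, 1.16 in BP10 and 1.32 in BP40. These arrays differed by less than the spread between probes, with log2 ratios of -0.07 and 0.09, and the first was 0.08 scaled on the spike-in probes. The second probe (chr8:71425050-71425109, mm9) had -0.96 in the control, -0.47 in BP10 and -0.69 in BP40. Here the control was lowest, with log2 ratios of 0.48 in BP10 and 0.26 in BP40. The probes were 0.55 apart in the BP10 log2 ratio and 0.18 apart in BP40, so no direction could be given for Lpl in BP10. Under scaling on the spike-in probes both probes were lower in BP40, at -0.69 and -0.51.

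Adipoq encodes adiponectin, a hormone made almost only by fat cells, and is the member that marks the differentiated cell. Its probe was well above background in the control only, with a normalised log2 signal of -4.55, against -5.57 in BP10 and -5.96 in BP40, where it was not well above background. The processed intensities were 75.1, 30.2 and 19.8. Set against the dimmest signals measured well above background on the BP arrays, Adipoq was at least 1.46-fold lower in BP10 and at least 1.44-fold lower in BP40, and it was not called. The scanner's own error was 14.2% of the signal in the control and 30.9% and 41.0% on the BP arrays. With normexp background correction the log2 ratio was much smaller, as near to 0 as -0.12 in BP10 and -0.16 in BP40. The sequences of the Adipoq probe and the second Lpl probe are printed because one is the dim marker of mature fat cells and the other is the probe that disagrees with its partner.
Adipoq probe, chr16:23157576-23157635 (mm9), plus strand: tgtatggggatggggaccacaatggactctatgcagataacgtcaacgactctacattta
Lpl second probe, chr8:71425050-71425109 (mm9), plus strand: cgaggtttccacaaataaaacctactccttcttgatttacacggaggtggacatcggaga

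The promoters of Adipoq and Cd36 are shown next because they carry the C/EBP letters, and that of Plin2 because, with Cd36, it carries the half-site. All are from GRCm38.p6, written along the gene's own strand, with capitals as above.
Adipoq, chr16:23146286-23146535, plus strand: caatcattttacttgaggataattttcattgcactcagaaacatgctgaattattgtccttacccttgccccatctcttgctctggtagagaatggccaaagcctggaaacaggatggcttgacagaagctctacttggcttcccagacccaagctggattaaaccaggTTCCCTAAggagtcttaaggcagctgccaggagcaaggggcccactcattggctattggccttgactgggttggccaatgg
Cd36, chr5:17835897-17836146, minus strand: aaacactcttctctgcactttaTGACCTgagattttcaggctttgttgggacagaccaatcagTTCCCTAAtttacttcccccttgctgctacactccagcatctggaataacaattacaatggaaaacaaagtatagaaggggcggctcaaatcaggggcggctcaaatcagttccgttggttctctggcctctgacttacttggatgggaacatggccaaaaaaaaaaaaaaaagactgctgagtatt
Plin2, chr4:86670060-86670309, minus strand: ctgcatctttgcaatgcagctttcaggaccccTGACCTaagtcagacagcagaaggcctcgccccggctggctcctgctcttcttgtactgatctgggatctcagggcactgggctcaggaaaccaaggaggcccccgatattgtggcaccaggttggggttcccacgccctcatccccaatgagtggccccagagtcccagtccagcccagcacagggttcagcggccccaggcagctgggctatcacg

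Adipoq held 1 C/EBP match, from -81 to -74. Cd36 held 1 C/EBP match, from -187 to -180, and 1 half-site, from -228 to -223, and Plin2 held 1 half-site, from -218 to -213. None of the 8 promoters of the 6 members in the table held the full direct repeat.

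Angptl4 was down-regulated at both doses. It encodes a secreted inhibitor of lipoprotein lipase and is a well-known PPAR target in fat, liver and muscle. Its single spot (chr17:33911880-33911939, mm9) had a normalised log2 signal of 0.68 in the control, -0.40 in BP10 and -0.86 in BP40. The control was highest and BP40 lowest. The log2 ratio was -1.08 in BP10, 2.11-fold lower, and -1.54 in BP40, 2.91-fold lower. Between the doses the log2 ratio was -0.46. The BP10 value lies at the threshold, and the call was lost at -0.99 once the median ratio of genes of the same brightness was subtracted and at -0.93 under scaling on the median level of the spike-in probes, but not on their median ratio, at -1.09. Pparg and Angptl4 lay on opposite sides of the control at both doses.

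Plin2, the coat protein of lipid droplets that most cell types make, had a normalised log2 signal of 4.04 in the control, 4.08 in BP10 and 3.76 in BP40 (chr4:86302847-86302906, mm9). BP40 was lowest. The log2 ratio was 0.04 in BP10, which turned to as low as -0.20 with normexp, and -0.28 in BP40, which reached -1.05 under scaling on the spike-in probes.

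**Figure D3:**
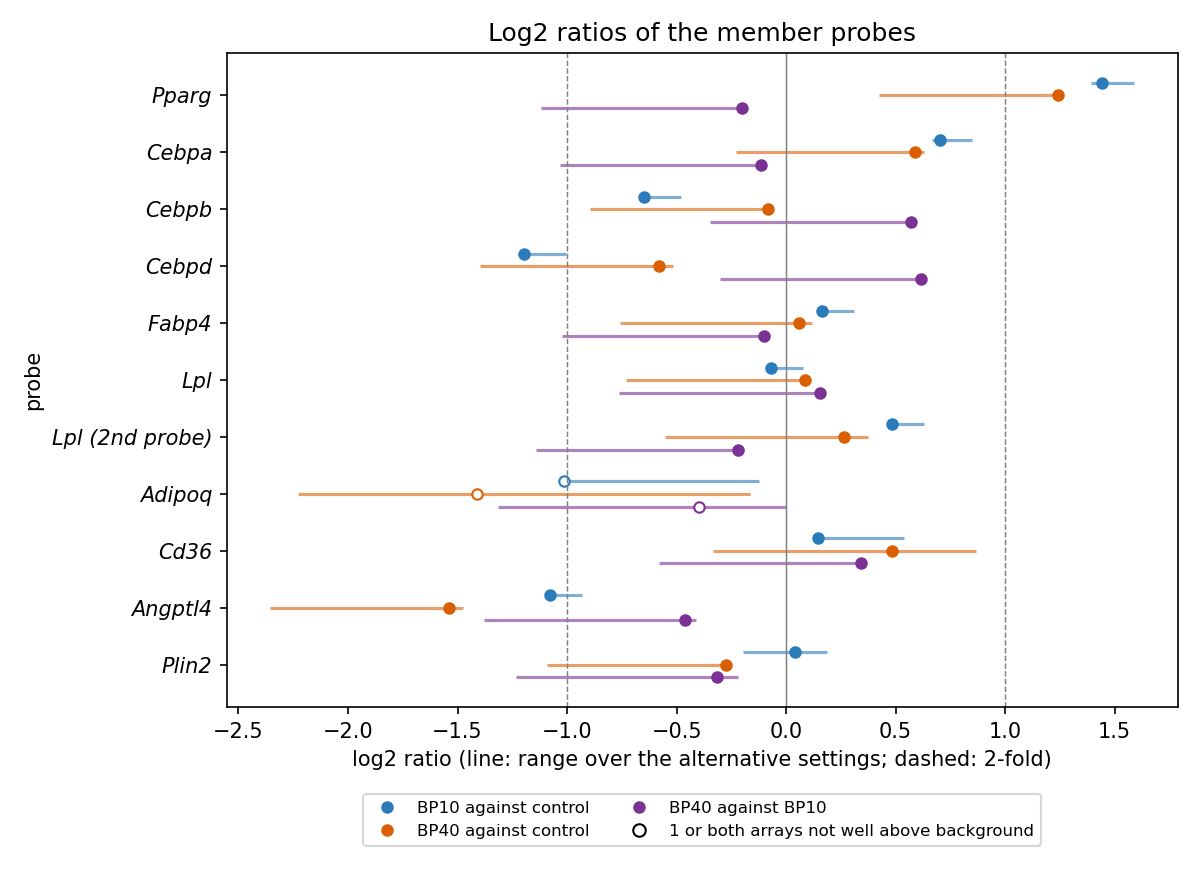
Log2 ratios (horizontal axis) of each member probe at BP10 and at BP40 relative to the control, and of BP40 relative to BP10; the lines span the values under 9 alternative settings and the dashed lines mark 2-fold. Pparg lies beyond 2-fold on the higher side at both doses and Angptl4 on the lower side. The low end of each line for BP40 relative to the control is the value scaled on the median ratio of the spike-in probes, 0.42 for Pparg.

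The wider programme was described with 9 lists of genes, which hold 138 genes beside the members. In BP10, 2 of the 136 that could be called were higher and 12 lower, and in BP40 3 of 135 were higher and 6 lower. These shares stand beside 3.6% of all genes higher and 12.4% lower in BP10, and 3.25% higher and 10.9% lower in BP40. The split depended on the scaling. In BP10 it was 4 higher and 7 lower with quantile normalization. It was 5 and 5 with the brightness trend subtracted or on the spike-in level, and 2 and 12 on the spike-in ratio. In BP40 it was 2 higher and 1 lower with normexp and 1 and 56 on the spike-in level. Of the 135 that could be called at both doses, 0 were called higher at both and 5, or 3.7%, lower at both, beside 1.18% and 7.71% of all genes. The median log2 ratio was -0.19 in BP10 and -0.15 in BP40. The counts by list that follow include the members.

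Among 19 regulators that promote adipogenesis, 0 were called higher, and 3 were called lower in BP10, namely Cebpd, Klf15 and Zfp423. These and the other genes named beside small counts were singled out after their values were seen. Klf15 had a log2 ratio of -1.16 in BP10 and -0.65 in BP40. Zfp423, a factor of committed preadipocytes, had -1.15 in BP10 at the probe used, while its other probes had -0.21 and -0.43. In BP40 none of the 19 was called. Of 16 inhibitors of adipogenesis that could be called, 1 was called in BP10, Zfp521, a zinc finger partner of the early B cell factors, at -1.14 (-0.97 at its second probe). That call was lost at -0.99 when scaled on the spike-in probes, but not on their median ratio, at -1.16. In BP40 Zfp521 had -0.32 at the probe used and -1.12, past 2-fold, at its second probe, so the probes differ there. The inhibitor Dlk1, a surface protein of preadipocytes, had log2 ratios of 0.45 and 0.65 and was not called. Of 20 partners and coregulators of PPARG, 0 were called against the control at either dose. The retinoid X receptors, the obligate partners, went different ways, with log2 ratios in BP10 and BP40 of 0.51 and 0.18 for Rxra, -0.04 and 0.25 for Rxrb and -0.66 and -0.68 for Rxrg. The acetyltransferase Ep300 was called between the doses, with a normalised log2 signal of -0.91 in the control, -0.62 in BP10 and -1.63 in BP40 and a log2 ratio of -1.02 for BP40 against BP10.

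Of 12 factors secreted by fat cells, 4 were called lower in BP10 and 2 in BP40. By sign alone 11 were below the control at each dose, beside 68.8% of all genes in BP10 and 60.7% in BP40, and in BP40 the count was 9 of 12 with quantile normalization, normexp or the brightness trend subtracted. The list had a median log2 ratio of -0.88 in BP10 and -0.72 in BP40, or -0.80 and -0.52 with dim genes at their bound. Lep, the hormone leptin, had -2.32 in the control, -3.79 in BP10 (a spot with the scanner's outlier flag) and -3.85 in BP40. The control was highest, and the log2 ratios were -1.47 and -1.53. Itln1, which encodes the lectin omentin, was not well above background on either BP array and had log2 ratios of at most -1.10 and -1.09 as bounds. Its second probe gave bounds of -1.27 and -1.25, and its remaining probe was not well above background on any array. Cfd, the complement factor adipsin, and Apln, the peptide apelin, were called lower in BP10, at -1.10 (a bound) and -1.12. In BP40 they had -0.99 and -0.20, and between the doses 0.11 (a bound) and 0.91, none of which was called. Scaled on the median level of the spike-in probes, the BP10 calls of Itln1, Cfd and Apln were lost. On the median ratio of those probes the calls stayed, at bounds of -1.12 for Itln1 and -1.11 for Cfd and at -1.13 for Apln. Of the 12, 8 were well above background on all arrays. The list's median was -0.46 in BP10 and -0.27 in BP40 after subtracting the median ratio of genes of the same brightness, and -0.48 and -0.15 with normexp and the 75th percentile.

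Genes of lipid droplets and triglyceride handling numbered 21. Plin5 and Lipe were called higher in BP10, Plin5 with a bound of 1.29, since it was well above background on the BP10 array alone, and in BP40 Fitm1 was called higher and Cidea, at -1.13, lower. Lipe, the hormone-sensitive lipase, had -3.73 in the control, -2.57 in BP10 and -4.30 in BP40. BP10 was the high array, and the log2 ratio of BP40 to BP10 was -1.73. Fitm1, a protein that helps to form lipid droplets, had -5.23 in the control, -7.17 in BP10, where it was not well above background, and -2.15 in BP40. BP40 was the high array, with a log2 ratio of at least 2.95 to BP10, and the value rests on a single spot. Of 13 genes of fatty acid uptake, Angptl4 was called lower at both doses and Aqp7, a glycerol channel, higher in BP40 at 1.27, or 0.50 when scaled on the spike-in probes. Of 18 genes of glucose use and lipid synthesis, 0 were called in BP10, and Adig was called higher in BP40 at 1.04, or 0.26 when scaled on the spike-in probes. The second Adig probe, also well above background on all arrays, had -1.12, so the probes disagree in direction.

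Among 19 PPAR targets of many tissues that could be called, 4 were called lower in BP10 and 3 in BP40, Angptl4 included. Of all genes, 12.4% were called lower in BP10 and 10.9% in BP40. By sign alone 12 of the 19 were below the control and 7 above it at each dose. The list had a median log2 ratio of -0.30 in BP10 and -0.21 in BP40. Using every probe of each gene, and not 1 chosen probe, that median was -0.04 in BP10 and -0.07 in BP40. Cyp4a14, a fatty acid hydroxylase, had -3.11 in the control, -4.21 in BP10 and -4.34 in BP40. Both BP arrays were low, with log2 ratios of -1.09 and -1.23. The first was -0.94 scaled on the spike-in probes and -1.10 on their median ratio. Cyp4a10, a related hydroxylase, had log2 ratios of -1.30 and -1.09 at the probe used, -0.88 and -0.59 at a second one and 0.87 and 0.24 at the other. Near-identical Cyp4a genes can hybridise to the same probe, so which gene each probe read is uncertain. Acot1, an acyl-CoA thioesterase, had 1.60 in the control, 0.44 in BP10 and 1.95 in BP40. BP10 was the low array, and the log2 ratio of BP40 to BP10 was 1.51, or 0.60 scaled on the spike-in probes.

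Of 12 markers of preadipocytes and adipose progenitors, Pparg was the one called higher at either dose, while 2 were called lower in BP10 and 1 in BP40. Dpp4, a surface peptidase of early progenitors, had -4.02 in the control and was not well above background on either BP array. Its bounds on the log2 ratio were -1.07 and -1.06. The first lost its call on the median level of the spike-in probes, but not on their median ratio, at -1.09. Cd34, a surface sialomucin, had 2.90 in the control, 1.82 in BP10 and 2.85 in BP40. BP10 was the low array, and the log2 ratio of BP40 to BP10 was 1.03. It was 0.08 at the second Cd34 probe, 0.11 when scaled on the spike-in probes and 0.23 on their median ratio. The BP10 ratio to the control, -1.08, became -0.93 on the median level and stayed called at -1.09 on the median ratio. At the second Cd34 probe, also well above background on all arrays, it was only -0.27. Pdgfra and Pdgfrb are shared with the fibroblast list.

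**Figure D4:**
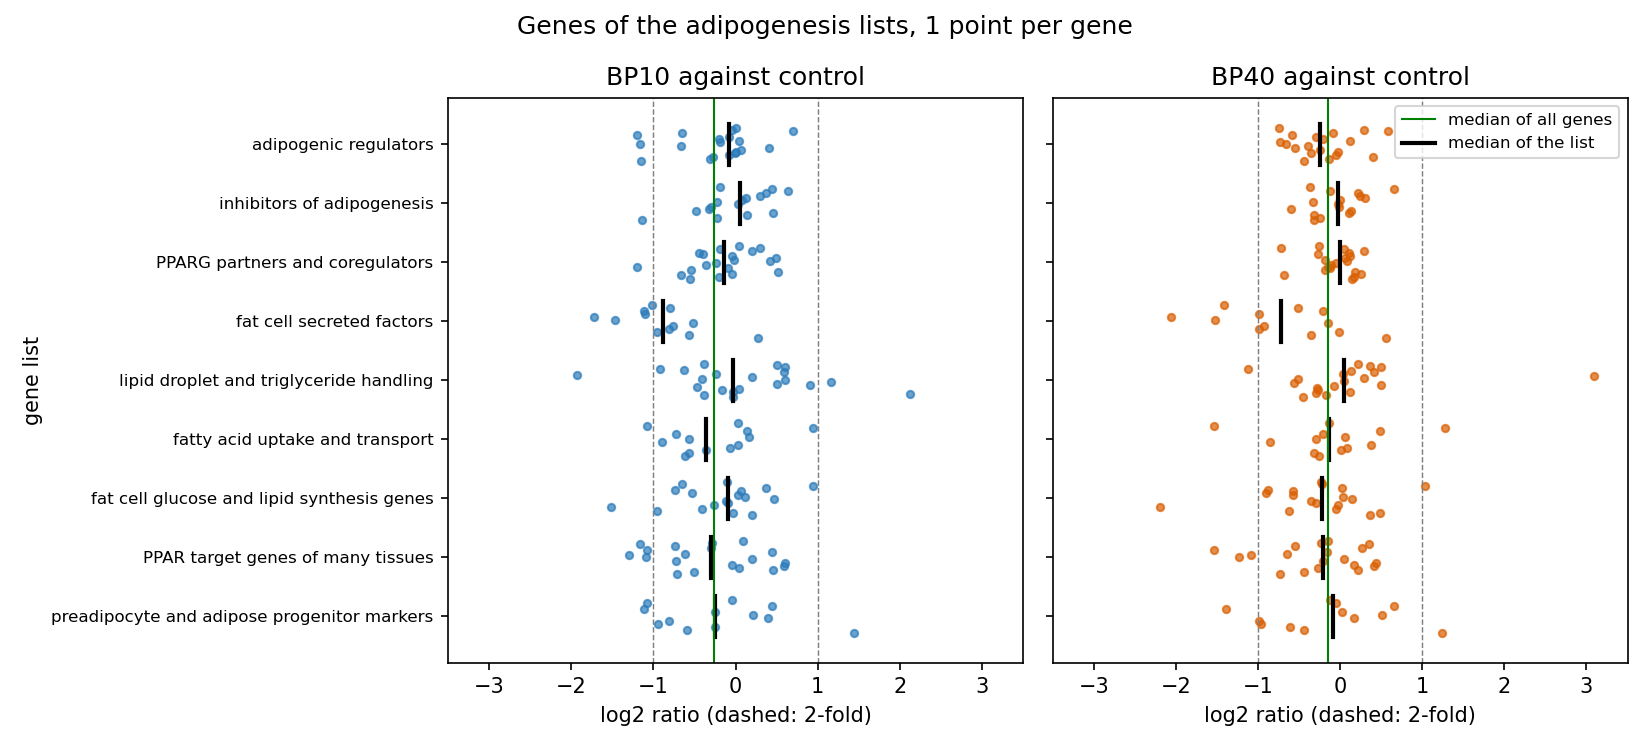
Log2 ratio (horizontal axis) of each gene of the 9 adipogenesis lists at BP10 and at BP40, relative to the control, 1 point per gene; black bars are list medians, the green line is the median of all genes and dashed lines mark 2-fold. Genes dim on 1 of the 2 arrays are drawn at their measured ratio. Secreted factors lie furthest to the left, with medians of -0.88 and -0.72.

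Markers of cell types were set beside the members, and their part in the ratios was not tested. The 15 fibroblast markers had a summed level, as a multiple of the array's 75th percentile, of 1640 in the control, 1193 in BP10 and 1263 in BP40. All 15 were lower in BP10 and 13 were lower in BP40, with median log2 ratios of -0.60 and -0.67, beside 68.8% and 60.7% of all genes lower. With quantile normalization 12 were lower in BP10, with a median of -0.33. The 12 fat cell markers had a summed level of 2.80 in the control, 3.09 in BP10 and 2.94 in BP40, with 0 called higher at either dose. This sum rests mostly on Fabp4 and Cebpa. By sign 9 of the 12 were lower in BP10 and 7 in BP40, with medians of -0.52 and -0.29, and 2 and 1 were called lower. With dim genes at their bound the medians were -0.25 and -0.14. After subtracting the median ratio of genes of the same brightness, 5 of the 12 were lower at each dose, with medians of 0.07 and 0.09. So no direction could be given for the fat cell markers as a list. Of the 12, 9 were well above background on all arrays, and Plin1, the droplet coat protein of mature fat cells, had -3.44 in the control, -3.90 in BP10 and -3.72 in BP40. The brown fat markers Ucp1 and Elovl3 were not well above background on any array. The 15 macrophage markers, a cell type that also makes Pparg, Fabp4, Cd36 and Lpl, had a summed level of 39.2 in the control, 32.9 in BP10 and 36.4 in BP40. The macrophage sum rests mostly on Itgam, with log2 ratios of -0.45 and -0.43. The median log2 ratios of the 15 were -0.07 and 0.08, with 7 higher in BP10 and 8 in BP40. Of these, 2 were called higher in BP10 and 1 in BP40. Lyz2, at 1.09 and 1.25, was called at both doses, and Spi1 in BP10 alone, with a bound of 1.07. The change of -0.77 under scaling on the spike-in probes takes the BP40 ratio of Lyz2 below 2-fold. Of the 15, 8 were lower in BP10 and 7 in BP40, and 0 were called lower. Among these were Mrc1, at -0.97 and -0.79, and Fcgr1, at -0.93 and -0.47. The endothelial list had summed levels of 15.8, 12.3 and 14.5 in the same order, with Cdh5, Tie1, Erg and Esam not well above background on any array. The skeletal muscle list had 16.3, 16.0 and 17.7, with Myf5 and Ttn not well above background on any array. The muscle sum rests mostly on Acta1, and the endothelial sum on Kdr and Flt1.

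The genes whose pair of ratios lay nearest to those of Pparg were looked for among 4519 genes well above background on all arrays with a mean normalised log2 signal within 1 of that of Pparg. The measure was the Euclidean distance between pairs of log2 ratios, over 3 arrays of which the control is shared. The nearest was Atrip, a partner of the DNA damage kinase ATR, at a distance of 0.13, with log2 ratios of 1.42 in BP10 and 1.11 in BP40. Map6d1, a microtubule-stabilising protein, followed at 0.25 and Gpaa1, a subunit of the complex that attaches GPI anchors, at 0.30. The next were a long noncoding RNA region without a gene symbol, at 0.31, and LOC100041203, at 0.35. Of the 4519 genes, 17 had a ratio at or above that of Pparg in BP10, 27 in BP40 and 6 in both. Pparg was chosen with these same ratios in view, so its place among them is a description and supports nothing.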

How the data were processed

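Total RNA from 3 MEF cultures was labelled with Cy3 and hybridised to 1-colour Agilent mouse arrays, 1 per condition, per the labels. The authors deposited scanner output from Feature Extraction 10.5.1.1, whose processed signal is an intensity corrected for background on each array alone, with no scaling from array to array. Their series table held the same intensity values (100% of spots within a relative tolerance of 0.0001). Probe coordinates are those of mm9 in the scanner files. Position in exon or intron was not analysed here. The files hold 0 unused columns of per-sample values.

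Log2 intensity was scaled on the 75th percentile of each array's gene spots, and spots of a probe were averaged. Probes were named by the RefSeq symbol of their accession (26425 probes, 47.5%) or else kept the scanner file's name. A gene was represented by its probe with the most arrays well above background, ties going to the brightest. A probe not well above background on 1 array gave a bound, its signal on the other array against the lowest signal measured well above background there. Where the dim signal was itself above that lowest signal, as for Cfd in BP10, the bound is the measured ratio. Depth has no counterpart in array data, and 1 array per condition allowed no test, p-value or SD between cultures. Named genes were all members, list genes called at both doses in one direction (up to 4 a list) or between doses (up to 2 a list), and the 5 genes nearest to Pparg. Others named are marked in the text. The members and the 9 adipogenesis and 6 marker lists were chosen with earlier results of these data known. The alternatives, 12 planned and 2 added after the data were seen, changed the threshold, filter, scaling, background correction, probe choice, treatment of flagged spots and source. Python 3.11.15, numpy 2.4.6, pandas 2.3.3 and R 4.3.3 with limma 3.58.1 (normexp offset 50, quantile normalization) were used. Calling was tested on simulated data with known changes, whose outcome is not given here and is used for no result above.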

Additional observations from a re-analysis of the deposited data

How the results depend on the processing

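No paired analysis was possible because there was a single array per condition. Of 126 counts of genes called under 14 alternatives, 83 stayed within 1.5 times the reported count and 43 did not. At a 1.5-fold threshold 5 members were called in BP10 and 1 between the doses, and at 3-fold 0 members at either dose. Over all genes the counts for BP10, BP40 and BP40 against BP10 were 10458, 9662 and 5037 with the 1.5-fold threshold. They were 1229, 1020 and 660 with 3-fold, 8307, 7481 and 3716 without the filter on dim probes, 1544, 1199 and 793 with normexp and quantile normalization, and 1724, 1264 and 801 with normexp and the 75th percentile. With both arrays well above background, 980 genes were called between the doses. For the wider lists the counts in the same order were 43, 27 and 22 with 1.5-fold and 0, 1 and 2 with 3-fold thresholds, and 5, 3 and 2 with normexp and the 75th percentile. With normexp and quantile normalization they were 5 in BP10 and 3 in BP40. Scaling on the median level of the E1A spike-in probes, chosen after seeing the data, called 4 members in BP40 (Adipoq, Angptl4, Cebpd and Plin2, all lower) and 5 between the doses (Pparg, Cebpa, Fabp4, Angptl4 and Plin2, all lower in BP40). It called 12642 genes in BP40 and 9146 between the doses over all genes, and 57 and 53 in the wider lists. Scaling on their median ratio, also added later, called the same 4 members in BP40 and 3 between the doses (Pparg, Angptl4 and Plin2), 13499 and 6799 genes over all genes, and 61 and 35 in the wider lists. The median level moved the median log2 ratio of all genes from -0.24 to -0.09 in BP10 and from -0.12 to -0.89 in BP40, the median ratio to -0.25 and -0.94, whereas quantile normalization moved it to -0.05 and -0.01. The share of calls that were higher, 22.5% in BP10 and 23.0% in BP40, became 51.4% and 54.2% with quantile normalization, 48.4% and 51.5% with normexp and quantile normalization, 36.9% and 45.5% with normexp and the 75th percentile, 67.2% and 61.7% after subtracting the median ratio at each brightness, 34.7% and 2.00% on the spike-in level, and 21.6% and 1.78% on the spike-in ratio. The cause was not tested. Of 297 log2 ratios of member probes under the alternatives, 241 moved by less than the spread between probes. Pparg lay between 1.39 and 1.59 in BP10, and in BP40 between 0.42, on the spike-in ratio, and 1.25. Signal over background limits Adipoq, Itln1, Dpp4, Fitm1, Cfd and Plin5 to bounds.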
